A study of Mus musculus with 40 samples.

Results

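Mast cells sorted from MrgprdCre mice were set against skin of the same mouse line, to show which genes the sorted cells held above the tissue and which genes of the tissue they lacked. The comparison used 8 of the 40 RNA-seq libraries of the series, 4 of sorted mast cells and 4 of skin, and these 8 are all the libraries that the labels give those names. The series sets skin and mast cells of mice meant to lose their MrgprD sensory neurons against these Cre controls, and adds skin given β-alanine and mast cells cultured from the peritoneum.

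Both groups carried Mrgprdtm1.1(cre)And/Mmnc, in a strain labelled B6.129S1(Cg), an allele that places Cre at Mrgprd, a receptor of nonpeptidergic sensory neurons. Their treatment label lists the acetone and olive oil vehicle (4 parts to 1). The treatment protocol gives diphtheria toxin for 3 to 4 weeks to these controls as well as to MrgprdDTR mice, and which of these statements holds was not settled. Sorted cells and skin are both labelled as of epidermal origin, whereas the design text describes whole ear. The surface markers of the sort, the age of the mice and whether replicates came from separate mice are not given in the sources used here. The p-values below therefore measure the spread between these libraries, which may be technical. MrgprdDTR sorted cells and skin, used beside them at the end, carry in addition Gt(ROSA)26Sortm1(HBEGF)Awai, a toxin receptor switched on by Cre, from a cross with that C57BL/6 line. They are labelled as given diphtheria toxin by intraperitoneal injection besides the same vehicle. Mrgprd itself was listed at 0.0109, 0.0772, 0.158 and 0 FPKM in the MrgprdCre sorted cells and at 0 to 0.0081 FPKM in skin.

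Connective tissue mast cells of the skin store histamine, serotonin, heparin and neutral proteases in granules, and release them when IgE on the receptor FcεRI is crosslinked or when peptides engage Mrgprb2. Their survival depends on KIT and its ligand. Basophils, which circulate, share FcεRI and the transcription factor GATA2 with mast cells but carry little KIT, and in mice they are marked by the protease Mcpt8. The skin around them is mostly keratinocytes, fibroblasts, vessels, nerve, fat and, in the ear, cartilage and muscle.

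The promoters of genes that separate the groups are shown first, because GATA factors and AP-1 are well known regulators of mast cell genes and of epidermal genes. Each window runs from 250 bases before to 50 bases after a transcription start of the RefSeq annotation on build GRCm38.p6, 5′ to 3′ on the gene's strand. Capitals mark GATA hexamers on either strand (the form AGATAA, the form AGATAG, the form TGATAA and the form TGATAG) in the genes high in sorted cells, and TGANTCA, the AP-1 element, in Lor. The windows are Cpa3 (chr3:20242132-20242431, minus strand), Fcer1a (chr1:173227180-173227479, minus), Ms4a2 (chr19:11623670-11623969, minus), Cd200r3 (chr16:44943428-44943727, plus), Mrgprb2 (chr7:48558037-48558336, minus), Mcpt8 (chr14:56085148-56085447, minus) and Lor (chr3:92083093-92083392, minus).
Cpa3: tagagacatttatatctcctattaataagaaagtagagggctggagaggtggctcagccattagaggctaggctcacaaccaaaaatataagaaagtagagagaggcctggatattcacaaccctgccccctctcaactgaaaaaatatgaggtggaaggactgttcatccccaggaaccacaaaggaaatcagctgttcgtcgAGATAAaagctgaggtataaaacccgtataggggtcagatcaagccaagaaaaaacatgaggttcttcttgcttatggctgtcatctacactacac
Fcer1a: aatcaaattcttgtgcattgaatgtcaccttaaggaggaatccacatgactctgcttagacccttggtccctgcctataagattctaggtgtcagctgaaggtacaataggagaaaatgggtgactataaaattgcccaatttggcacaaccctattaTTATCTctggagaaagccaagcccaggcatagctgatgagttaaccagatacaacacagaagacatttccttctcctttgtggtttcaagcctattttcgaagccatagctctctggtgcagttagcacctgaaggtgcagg
Ms4a2: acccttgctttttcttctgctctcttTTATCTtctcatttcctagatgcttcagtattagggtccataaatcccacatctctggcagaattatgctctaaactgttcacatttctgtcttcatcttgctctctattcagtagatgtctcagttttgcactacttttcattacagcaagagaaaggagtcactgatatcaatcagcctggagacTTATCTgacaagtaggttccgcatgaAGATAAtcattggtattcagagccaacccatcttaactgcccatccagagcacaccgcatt
Cd200r3: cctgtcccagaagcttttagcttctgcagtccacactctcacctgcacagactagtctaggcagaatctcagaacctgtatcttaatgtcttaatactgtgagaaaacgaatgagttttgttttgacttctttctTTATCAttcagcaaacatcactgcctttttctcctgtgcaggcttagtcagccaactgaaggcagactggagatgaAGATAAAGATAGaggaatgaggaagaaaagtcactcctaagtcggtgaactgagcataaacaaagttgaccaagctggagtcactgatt
Mrgprb2: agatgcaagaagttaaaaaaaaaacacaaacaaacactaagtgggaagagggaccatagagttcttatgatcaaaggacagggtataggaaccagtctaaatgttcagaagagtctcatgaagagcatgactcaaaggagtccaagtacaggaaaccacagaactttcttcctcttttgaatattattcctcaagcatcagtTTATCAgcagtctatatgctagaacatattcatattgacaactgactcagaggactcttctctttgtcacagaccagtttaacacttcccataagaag
Mcpt8: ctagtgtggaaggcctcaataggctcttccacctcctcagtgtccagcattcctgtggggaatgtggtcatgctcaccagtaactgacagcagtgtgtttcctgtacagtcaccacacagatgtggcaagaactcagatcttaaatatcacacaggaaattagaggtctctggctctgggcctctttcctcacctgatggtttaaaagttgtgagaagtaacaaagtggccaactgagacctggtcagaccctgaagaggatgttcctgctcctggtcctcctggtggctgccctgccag
Lor: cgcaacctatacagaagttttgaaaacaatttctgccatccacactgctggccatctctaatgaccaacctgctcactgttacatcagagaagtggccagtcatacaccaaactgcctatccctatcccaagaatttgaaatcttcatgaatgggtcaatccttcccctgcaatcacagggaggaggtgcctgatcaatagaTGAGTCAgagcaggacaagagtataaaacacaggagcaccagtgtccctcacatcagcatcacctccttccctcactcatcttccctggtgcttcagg

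Of 12 genes high in sorted cells that were looked up, 11 had a window and 9 of these held a GATA hexamer. Of 5 genes high in skin, 3 held one as well (Krt2, Krt10 and Krt14), and so did 29.8% of all 32851 windows. Ms4a2 and Cd200r3 held 3 each. The single hexamers began at -46 in Cpa3, -92 in Fcer1a and -48 in Mrgprb2, counted from the start. Mcpt8 and Kit had none within this window. TGANTCA was found at -48 in Lor but not in the windows of Krt2, Krt5, Krt10 or Krt14, and 7.81% of all windows hold it. Of the 11 windows of genes high in sorted cells 1 held it, that of Mrgprb2, at 2 places left in lower case above. The 12 and 5 genes were picked with their levels known, and a match is a description of letters. The share over all strongly changed genes is void as a check, since 58.9% of the 56 genes that were at least 5 log2 units higher matched a window, and 73.4% of the 349 that were at least 5 lower.

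Fewer genes reached 1 FPKM in sorted cells than in skin, a cut not adjusted for the lower summed FPKM of sorted libraries given below. Genes listed above 0 numbered 13789, 15727, 19186 and 13201 in sorted libraries 1 to 4 and 16732 to 16826 in skin, so sorted library 3 exceeded every skin library. Genes with at least 1 FPKM numbered 8081 to 8326 in sorted libraries and 12103 to 12233 in skin libraries, outside chromosomes X and Y, which were left out throughout. The 10 most abundant genes took 13% to 14.5% of the summed FPKM in sorted libraries and 8.02% to 8.5% in skin. Summed FPKM was 154631 to 188179 in sorted libraries and 429670 to 455415 in skin. The median gene was 1.42 lower on the log2(FPKM + 1) scale in sorted cells, and changes of gene groups are read against that shift. Pearson correlations between libraries, on log2(FPKM + 1) across genes, were 0.9193 to 0.9747 within sorted cells, 0.9930 to 0.9963 within skin and 0.4374 to 0.5013 between the groups.

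Of 12292 genes tested, 800 (6.51%) were higher and 8027 (65.3%) were lower in sorted cells, together 71.8%, at an adjusted p under 0.05 (limma, Benjamini-Hochberg) and a change of at least 2-fold. Fold changes are sorted cells over skin, on the log2(FPKM + 1) scale, which understates the change of low genes. All 4 sorted libraries lay above all 4 skin libraries for 1129 genes (9.18%) and below them for 9581 (77.9%). The split depends on scaling: after the libraries were centred on their medians, 2732 genes (22.2%) were higher and 2468 (20.1%) lower, and after scaling to a common sum, 1775 (14.4%) and 4409 (35.9%). The large changes lay to both sides, with 56 genes at least 5 log2 units higher and 349 at least 5 lower. In bulk RNA, fewer cells of a type and less RNA per cell cannot be told apart. A gene near 0 in 1 group passed the low-value filter, at least 1 FPKM in 4 of the 8 libraries, only through the other, so counts over gene lists are descriptions, given beside these background shares.

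**Figure D1:**
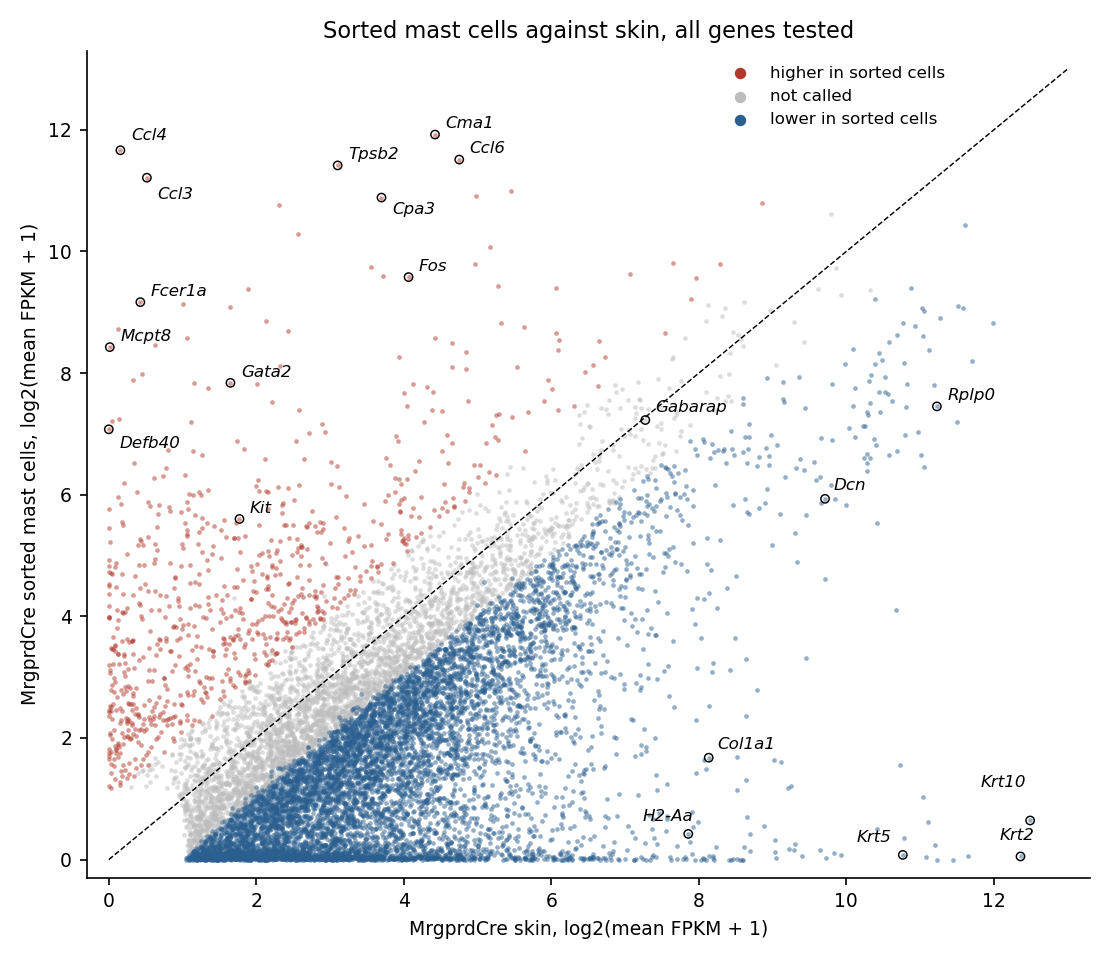
Mean level of each of the 12292 genes tested in MrgprdCre sorted mast cells (vertical axis) against MrgprdCre skin (horizontal axis), both as log2(mean FPKM + 1). Each point is a gene, red where higher, blue where lower and grey where not called; the dashed line marks equal levels, and most points lie under it.

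Mast cell proteases led the sorted transcriptome. Cma1, the connective tissue chymase, was the most abundant gene, with 3134, 3994, 3294 and 5094 FPKM in sorted cells and 15.8, 19.9, 23.6 and 22.5 FPKM in skin. Tpsb2, a tryptase, had 1983, 3244, 2461 and 3227 FPKM in sorted cells and 6.85, 7.83, 7.28 and 8.41 FPKM in skin. Mcpt4, another chymase, averaged 1923 ± 429 FPKM in sorted cells and 30.6 ± 3.37 FPKM in skin (SD, n = 4 each). These differences are many times the spread within either group. Cpa3, carboxypeptidase A3, had 1587, 2060, 1746 and 2171 FPKM in sorted cells and 10.7, 11.5, 14.2 and 11.5 FPKM in skin. The log2 changes were 7.49 ± 0.18 (SE) for Cma1, 8.29 ± 0.16 for Tpsb2, 5.91 ± 0.16 for Mcpt4 and 7.18 ± 0.13 for Cpa3, with adjusted p from 2.17e-10 to 1.88e-09 (limma). The skin level came to 0.527% of the sorted level for Cma1, 0.278% for Tpsb2, 0.633% for Cpa3 and 1.59% for Mcpt4.

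Of 11 listed proteases 8 passed the filter and all 8 were higher, with a median log2 change of 6.55. The tryptases Tpsab1 (235 ± 126 FPKM) and Tpsg1 (76.5 ± 29.5 FPKM) stood under 1 FPKM in every skin library. Ctsg, cathepsin G, was at 37.7, 49.8, 51.5 and 285 FPKM in sorted cells and at 0.531 to 0.923 FPKM in skin, so its mean rests on the fourth sorted library; its log2 change was 5.40, and 4.75 without that library. Gzmb, granzyme B, averaged 16.5 ± 7.99 FPKM in sorted cells and 0.191 ± 0.121 FPKM in skin. Mcpt1 and Mcpt2, the mucosal mast cell chymases, reached at most 0.0594 and 1.37 FPKM in sorted cells and did not pass the filter. Chymases, tryptases and other paralogs named below are close copies, so reads could have been split between them.

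The chymase genes lie together on chromosome 14, and the table lists 17 genes from Cma1 to Gzmb (mm9, chr14:56560287-56881097). The stretch was chosen after the values were seen. In it 8 genes were tested and all 8 were higher: Cma1, Cma2, Mcpt-ps1, Gm5801.dup1, Mcpt4, Mcpt8, Ctsg and Gzmb. The other 9 did not pass the filter. Of these, Gzmd, Gzme, Gzmf, Gzmg and Gzmn were under 0.1 FPKM in all 8 libraries. The tryptase stretch on chromosome 17 (mm9, chr17:25435338-25511387) holds 6 listed genes, and the 4 tested, Prss34, Tpsab1, Tpsb2 and Tpsg1, were all higher.

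All 14 receptors of the mast cell list that the table holds were tested and higher, with a median of 4.24. The α chain of the IgE receptor, Fcer1a (mm9, chr1:175151401-175157360), had 563, 706, 468 and 557 FPKM in sorted cells and 0.302, 0.337, 0.317 and 0.423 FPKM in skin. Its log2 change of 8.72 ± 0.13 (adjusted p = 7.1e-11, limma) was the largest of the list, and skin held 0.0601% of the sorted level. The β chain Ms4a2 averaged 228 ± 37.9 FPKM in sorted cells and 1.23 ± 0.42 FPKM in skin. The γ chain Fcer1g, which other leukocytes also use, averaged 1078 ± 99.7 FPKM in sorted cells and 35 ± 5.42 FPKM in skin. The receptor subunits thus differed in how much of the sorted level skin kept: 0.0601% for α, 0.541% for β and 3.25% for γ.

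Kit, the receptor for stem cell factor (mm9, chr5:75971011-76052746), had 40.7, 49.2, 45.7 and 54.5 FPKM in sorted cells and 2.21, 2.11, 2.9 and 2.44 FPKM in skin. Its change was 3.83 ± 0.12 (adjusted p = 4.49e-09, limma), and skin held 5.08% of the sorted level. Mrgprb2, the receptor for basic peptides and drugs, had 43.8, 56.4, 32.7 and 43 FPKM in sorted cells and 1.98, 1.35, 1.36 and 2.04 FPKM in skin. The groups did not overlap for either gene. Its relatives Mrgprb1 (78.8 ± 11.6 FPKM) and Mrgprx2 (11.1 ± 2.24 FPKM) were at 1.05 ± 0.168 and 0.13 ± 0.0421 FPKM in skin. The IL-33 receptor Il1rl1 averaged 20.4 ± 6.26 FPKM in sorted cells and 0.55 ± 0.116 FPKM in skin. Hrh4, a histamine receptor, had 30, 31.9, 24.3 and 14.5 FPKM in sorted cells and at most 0.0724 FPKM in skin. Cd63, a tetraspanin of the granule membrane that many cells carry, was 899 ± 98.6 FPKM in sorted cells and 199 ± 15.9 FPKM in skin.

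**Figure D2:**
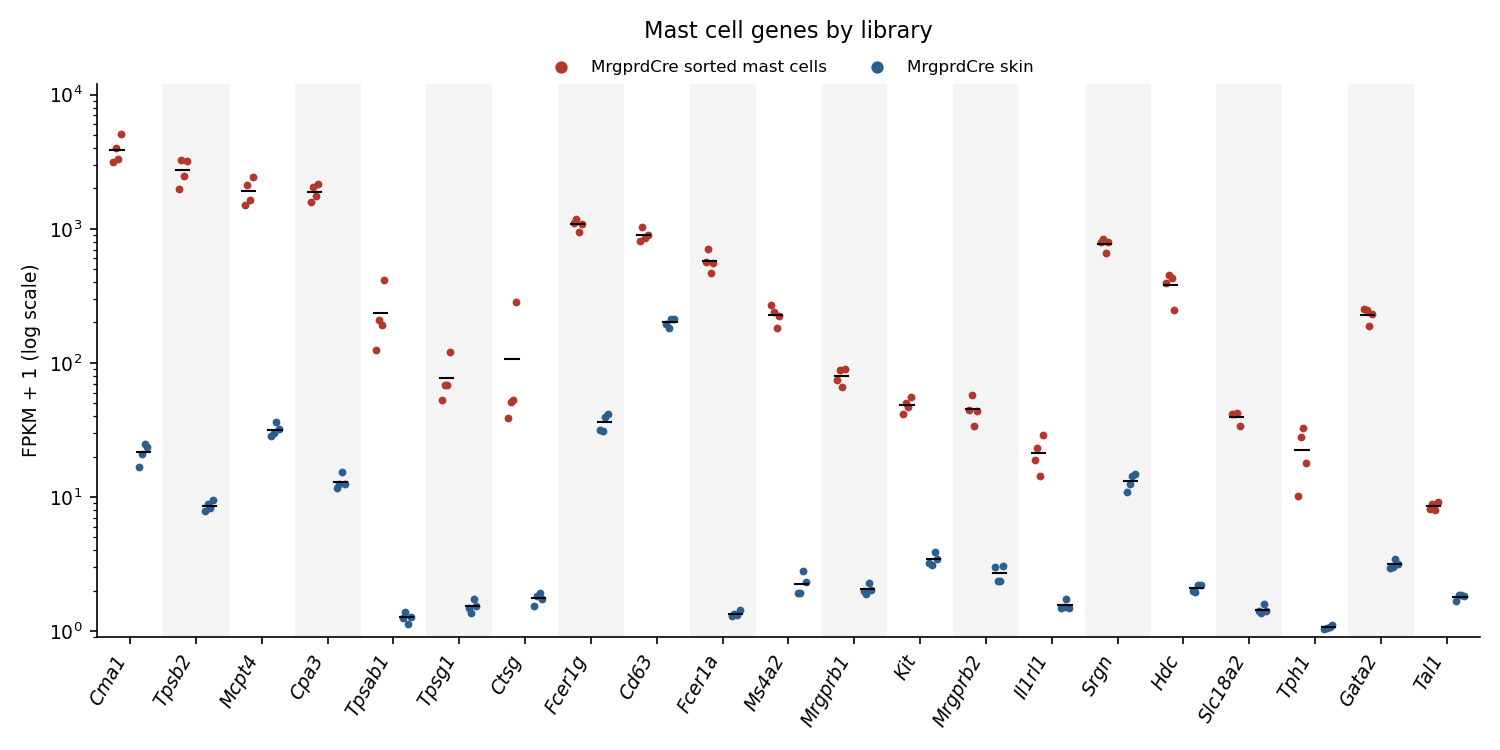
FPKM + 1 on a log axis for 21 mast cell genes, ordered as proteases, receptors, mediator genes and regulators; red points are the 4 MrgprdCre sorted libraries, blue points the 4 skin libraries and bars the means. The groups do not overlap for any of them, and Ctsg shows the widest spread among sorted libraries.

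Genes for making and storing mediators were higher in 9 of 12 cases, with a median of 2.48. Hdc, which makes histamine, had 393, 454, 429 and 247 FPKM in sorted cells and 0.991, 0.956, 1.19 and 1.21 FPKM in skin (log2 change 7.48 ± 0.18). Tph1, the first enzyme of serotonin synthesis, had 9.16, 27.1, 31.7 and 16.9 FPKM in sorted cells and at most 0.0986 FPKM in skin. Slc18a2, which loads amines into granules, averaged 38.7 ± 3.82 FPKM in sorted cells and 0.444 ± 0.0918 FPKM in skin. Srgn, the core protein that carries heparin, averaged 770 ± 79 FPKM in sorted cells and 12.1 ± 1.85 FPKM in skin. Rab37, a GTPase of secretory granules, averaged 41.8 ± 3.28 FPKM in sorted cells and 1.08 ± 0.171 FPKM in skin, and Ndst2, a heparin sulfotransferase, 43.6 ± 7.91 FPKM in sorted cells and 5.97 ± 0.507 FPKM in skin. Hpgds, the haematopoietic prostaglandin D synthase, was 16.6 ± 3.36 FPKM in sorted cells and 4.54 ± 0.697 FPKM in skin. Lamp1, a lysosomal membrane protein, was lower (34.3 ± 5.79 FPKM in sorted cells, 200 ± 7.06 FPKM in skin), and Rab27b, at 13.9 ± 4.12 FPKM in sorted cells and 9.79 ± 0.414 FPKM in skin, overlapped with skin. After median centring 10 of the 12 genes were called higher and 0 lower. Rab27b was then called higher (1.99) and Lamp1 was not called (-0.97). Ext1, a heparan sulfate polymerase, was lower at 3.66 ± 2.12 FPKM in sorted cells and 10.7 ± 0.274 FPKM in skin, a change of -1.43 that equals the shift of the median gene and turned to 0.13 after median centring.

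Transcription factors of the lineage were mixed: 6 of 17 were higher, 4 lower and 7 not called, with a median of 0.20, or 1.62 above that of all genes. After median centring 13 were higher and 3 lower. Gata2 had 249, 246, 187 and 229 FPKM in sorted cells and 1.95, 2, 2.44 and 2.16 FPKM in skin, the largest change of the list (6.18 ± 0.11). Nfe2, a factor known from megakaryocytes, averaged 61.7 ± 10.1 FPKM in sorted cells and 0.0932 ± 0.0567 FPKM in skin. Tal1 (7.53 ± 0.528 FPKM in sorted cells, 0.806 ± 0.0855 FPKM in skin), Runx1 (12.9 ± 1.58 FPKM in sorted cells, 2.37 ± 0.213 FPKM in skin), Fli1 and Ikzf1 were also higher. Mitf, needed for mast cell development and also used by melanocytes, was 4.84 ± 2.09 FPKM in sorted cells and 3.75 ± 0.506 FPKM in skin (change 0.24, adjusted p = 0.316, limma). It was called higher after median centring (1.80), quantile normalization (1.86) and scaling to a common sum (1.30). Cebpa, a factor of the myeloid and basophil branches that skin also expresses, had 8.05, 8.25, 7.54 and 6.35 FPKM in sorted cells and 179 to 186 FPKM in skin. Zfpm1, a GATA cofactor, was at 0.0976 ± 0.131 FPKM in sorted cells and 10.3 ± 0.387 FPKM in skin.

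Genes that mark basophils were as high in these libraries as many mast cell genes. All 20 tested members of the basophil-associated list were higher, with a median of 5.66, and they include genes that mast cells also use (Fcer1a, Ms4a2, Csf2rb, Il4, Il13). Mcpt8, the basophil protease, had 340, 467, 258 and 308 FPKM in sorted cells and was listed at 0 in 3 skin libraries and 0.0382 FPKM in the other. Prss34, another basophil protease, had 20.2, 74.9, 52 and 23.7 FPKM in sorted cells and was listed at 0 in all 4 skin libraries. Cd200r3, an activating receptor of basophils and mast cells, had 286, 279, 209 and 230 FPKM in sorted cells and 0.226 to 0.498 FPKM in skin. All 4 sorted libraries held these transcripts. The whole list summed to 6763 to 10430 FPKM in sorted cells and 14.1 to 18.7 FPKM in skin, and without the chemokines Ccl3 and Ccl4 to 2272 to 3229 FPKM in sorted cells and 13.9 to 18 FPKM in skin. Cyp11a1, a steroid side-chain cleavage enzyme, averaged 542 ± 45.9 FPKM in sorted cells and 2.12 ± 0.449 FPKM in skin. Itga2b, an integrin of platelets, averaged 51.2 ± 8.3 FPKM in sorted cells and 0.974 ± 0.127 FPKM in skin. Ccr3, the eotaxin receptor, averaged 10 ± 3.67 FPKM in sorted cells and 0.0318 ± 0.0277 FPKM in skin. Whether basophils were among the sorted cells was not tested.

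Of 24 chemokines and cytokines tested, 12 were higher and 12 lower as deposited, or 12 and 6 after median centring, and the largest increases of the whole comparison were those of Ccl4 and Ccl3. Ccl4 had 4242, 3616, 2557 and 2559 FPKM in sorted cells and 0.116, 0, 0.0555 and 0.289 FPKM in skin. Ccl3, its neighbour and close copy, had 3128, 2743, 1934 and 1685 FPKM in sorted cells and 0.221 to 0.627 FPKM in skin. Their log2 changes of 11.48 ± 0.18 and 10.66 ± 0.21 depend on the added 1, since skin was under it. Ccl6 (2917 ± 760 FPKM in sorted cells, 25.9 ± 2.89 FPKM in skin), Ccl7 (1255 ± 127 FPKM in sorted cells, 4.91 ± 1.04 FPKM in skin), Ccl9 (414 ± 85.2 FPKM in sorted cells, 4.39 ± 0.645 FPKM in skin) and Ccl2 (184 ± 35.5 FPKM in sorted cells, 3.65 ± 0.636 FPKM in skin) were higher as well. All of these attract monocytes, among other cells. Osm, a cytokine of the IL-6 family, had 476, 475, 344 and 392 FPKM in sorted cells and 0.042 to 0.143 FPKM in skin. Il4 averaged 150 ± 35.7 FPKM in sorted cells and 0.102 ± 0.117 FPKM in skin, Il6 148 ± 66.7 FPKM in sorted cells and 0.0277 ± 0.0229 FPKM in skin, and Il13 2.62 ± 1.54 FPKM in sorted cells and 0.0969 ± 0.0339 FPKM in skin. Sorted libraries 1 and 2 were above libraries 3 and 4 for Ccl3, Ccl4, Ccl6, Ccl2, Osm and Il6.

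The chemokine genes form 2 stretches on chromosome 11, chosen here after the values were seen. From Ccl5 to Ccl4 (mm9, chr11:83339280-83478185) all 4 tested genes, Ccl9, Ccl6, Ccl3 and Ccl4, were higher. From Ccl2 to Ccl1 (mm9, chr11:81849078-81993314) Ccl2 and Ccl7 were higher, while Ccl8 (on average 0.851 FPKM in sorted cells, 70.4 FPKM in skin), Ccl11 (listed at 0 in all 4 sorted libraries and 5.63 FPKM in skin) and Ccl12 (0.225 FPKM in sorted cells, 2.89 FPKM in skin) were lower. The cytokines lower in sorted cells include several that keratinocytes and stroma are known to make. Il33 was 0.0134 ± 0.0197 FPKM in sorted cells and 33 ± 3.2 FPKM in skin. Kitl, the ligand of KIT, was 0.16 ± 0.211 FPKM in sorted cells and 6.69 ± 0.449 FPKM in skin, Tslp 0.0708 ± 0.0691 FPKM in sorted cells and 2.69 ± 0.412 FPKM in skin, and Il18 0.25 ± 0.32 FPKM in sorted cells and 40.7 ± 4.09 FPKM in skin. Cxcl14 and Ccl27a fell in the same way, with changes of -5.10 and -5.20. Tslp was not called after median centring (-0.23) or quantile normalization (-0.12), or with 5 added to FPKM in place of 1 (-0.60).

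Among receptors for cytokines and growth factors, 10 of 30 were higher and 12 lower (after median centring 16 and 7). Higher were the β chains of the IL-3 receptor family, Csf2rb (116 ± 24.5 FPKM in sorted cells, 2.34 ± 0.147 FPKM in skin) and Csf2rb2, and both chains of the IL-18 receptor, Il18r1 (24.2 ± 6.88 FPKM in sorted cells, 0.867 ± 0.155 FPKM in skin) and Il18rap (19.6 ± 6.42 FPKM in sorted cells, 0.141 ± 0.057 FPKM in skin). The epithelial receptors Egfr (0.0224 ± 0.0412 FPKM in sorted cells, 11.1 ± 0.664 FPKM in skin) and Fgfr2 (0.914 ± 1.38 FPKM in sorted cells, 44 ± 2.59 FPKM in skin) were lower. So were Tnfrsf1a (0.492 ± 0.409 FPKM in sorted cells, 69.3 ± 0.345 FPKM in skin) and Il6st, the signalling chain used by Osm and Il6 (0.802 ± 0.641 FPKM in sorted cells, 30 ± 2.03 FPKM in skin).

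Other highly ranked genes of the sorted cells lay outside the mast cell lists. Ifitm1, an interferon-induced membrane protein, had 2397, 2069, 1394 and 1098 FPKM in sorted cells and 3.35 to 5.02 FPKM in skin. Rgs1, a regulator of G protein signalling, averaged 561 ± 144 FPKM in sorted cells and 1.02 ± 0.2 FPKM in skin. Cyp4f18, a lipid hydroxylase, averaged 350 ± 92 FPKM in sorted cells and 0.55 ± 0.159 FPKM in skin. Defb40, a β-defensin, had 149, 144, 94.2 and 148 FPKM in sorted cells and was listed at 0 in all skin libraries. In all, 28 genes were at least 5 FPKM in every sorted library and under 0.1 FPKM in every skin library, of which 14 were listed at 0 throughout in skin. That is 0.873% of the 3208 genes at 5 FPKM in all sorted libraries. By level in sorted cells they begin with Mcpt8, Il6, Defb40, Prss34, Hrh4, Tph1, the histone gene Hist2h2bb and the noncoding RNA Snhg9.

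Many markers of other blood cells were absent or lower, with exceptions. Of 14 tested macrophage and monocyte genes 11 were lower and 2 higher (after median centring 9 and 3), beside a background share of 65.3% lower. The complement gene C1qa (0.111 ± 0.147 FPKM in sorted cells, 41.1 ± 7.21 FPKM in skin), its relative C1qb, and the mannose receptor Mrc1 (0.00429 ± 0.00586 FPKM in sorted cells, 7.79 ± 1.39 FPKM in skin) were near 0 in sorted cells. The list still summed to 673 to 872 FPKM in sorted cells and 2063 to 2401 FPKM in skin, of which Apoe, a lipid carrier, alone gave 607 to 828 FPKM in sorted cells. The members higher as deposited were Ccr2, a chemokine receptor of monocytes and basophils (26.8 ± 10.3 FPKM in sorted cells, 3.8 ± 0.769 FPKM in skin), and the integrin Itgam (6.06 ± 1.65 FPKM in sorted cells, 1.6 ± 0.253 FPKM in skin).

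Of 12 dendritic and Langerhans cell genes 11 were lower as deposited, 6 after median centring and 7 after scaling to a common sum. Cd207, the Langerhans cell lectin, was 0.0197 ± 0.0261 FPKM in sorted cells and 16.6 ± 2.14 FPKM in skin, and the class II genes H2-Aa (0.34 ± 0.416 FPKM in sorted cells, 231 ± 16 FPKM in skin) and H2-Eb1 fell by 7.48 and 6.70 log2 units. Clec10a, a galactose lectin, was the exception, with 113, 172, 170 and 245 FPKM in sorted cells and 14 to 18 FPKM in skin. Of 11 T cell and innate lymphoid genes 8 were lower and 3 higher (after median centring 4 and 3), beside background shares of 65.3% and 6.51%. Their median change of -1.32 was near the -1.42 of all genes. That list summed to 263 to 457 FPKM in sorted cells and 169 to 184 FPKM in skin. T cell receptor genes were lower, such as Cd3g (0, 0, 1.32 and 0 FPKM in sorted cells, 12.2 to 17.1 FPKM in skin), and so was Gata3. Cd7 (306 ± 57.1 FPKM in sorted cells, 14.3 ± 1 FPKM in skin), Il7r (16.1 ± 6.25 FPKM in sorted cells, 1.58 ± 0.0502 FPKM in skin) and Nkg7 (45.9 ± 26.6 FPKM in sorted cells, 6.25 ± 1.26 FPKM in skin), which the list shares with innate lymphocytes, were higher. Cxcr2, a receptor of neutrophils and other granulocytes, was 57.8 ± 11.9 FPKM in sorted cells and 1.1 ± 0.107 FPKM in skin, while the eosinophil genes Prg2 and Epx did not exceed 0.1 FPKM in any of the 8 libraries. The eosinophil and neutrophil list summed to 51.6 to 253 FPKM in sorted cells and 18.6 to 30.9 FPKM in skin. Of the B cell list only 1 gene, Cd79b, was tested, and it was higher. That list summed to 2.08 to 4.54 FPKM in sorted cells and 0.919 to 1.6 FPKM in skin.

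Genes of the tissue were mostly far lower in sorted cells, though not all were near 0. Of 13 basal keratinocyte genes tested all 13 were lower (median -5.99), as were all 23 suprabasal and cornified envelope genes (-7.34), 9 of hair follicle and sebaceous gland (-6.01), 17 of skeletal muscle (-6.89), 13 of adipocytes (-4.16), 20 of fibroblasts and matrix (-4.85), 9 of cartilage (-2.96) and 7 of melanocytes (-2.80). The background share of lower genes was 65.3%. After median centring 22 of the 23 suprabasal, 13 of the 13 basal, 8 of the 9 hair follicle, 15 of the 17 muscle, 11 of the 13 adipocyte and 18 of the 20 fibroblast genes were still lower, but 6 of the 9 cartilage and 4 of the 7 melanocyte genes.

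Krt2, a keratin of the upper epidermis, fell furthest, with 0.0526, 0.0234, 0.0605 and 0.00956 FPKM in sorted cells and 5404, 5340, 4991 and 5303 FPKM in skin. Lor, loricrin of the cornified envelope (mm9, chr3:91884192-91887064), was listed at 0 in all 4 sorted libraries and had 2458, 2317, 2404 and 2458 FPKM in skin. Krt5, a keratin of the basal layer, had 0, 0.116, 0.0918 and 0.0116 FPKM in sorted cells and 1714 to 1794 FPKM in skin. Its partner Krt14 had 0.0217, 0.136, 0.167 and 3.86 FPKM in sorted cells and 2060 to 2200 FPKM in skin, a change of -10.37, and -10.90 without the fourth sorted library. Krt10, Fam25c, Calm4, Dmkn, Krtdap, Lgals7, Scd1 and Sbsn, most of them genes of the differentiating epidermis, completed the 12 largest decreases, with changes of -11.96 to -9.91. Trp63, the master regulator of the epidermis, was 0.03 ± 0.0553 FPKM in sorted cells and 64.3 ± 3.38 FPKM in skin, and Col17a1 of the hemidesmosome 0.00848 ± 0.0132 FPKM in sorted cells and 207 ± 12.1 FPKM in skin.

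Perp, a desmosomal gene that p53 induces, stood apart within the basal list, with 19.4, 22.3, 15.3 and 7.6 FPKM in sorted cells and 1547 to 1716 FPKM in skin. The whole list summed to 15.5 to 28.2 FPKM in sorted cells and 7076 to 7421 FPKM in skin. In all, 435 genes were at least 5 FPKM in every skin library and under 0.1 FPKM in every sorted library, or 5.5% of the 7911 genes at 5 FPKM in skin, and 73 of them were listed at 0 in all sorted libraries. By level in skin these begin with Krt2, Calm4, Lor, Lce1m, Lce1a1, Lce1b, Defb6 and Trim29, of which the Lce1 genes are near copies of each other.

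**Figure D3:**
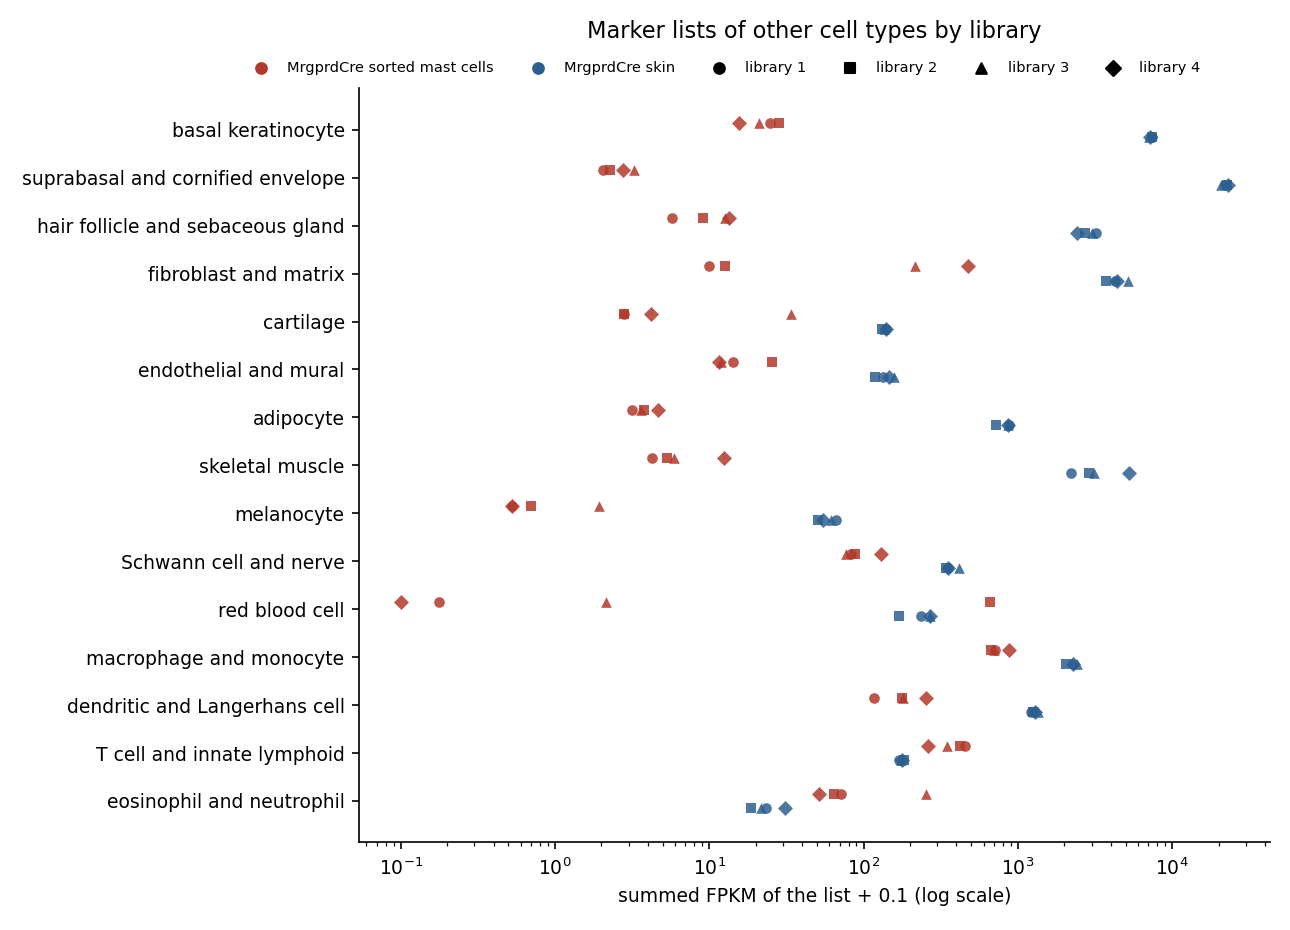
Summed FPKM (+ 0.1, log axis) of marker lists of other cell types in the 4 MrgprdCre sorted libraries (red, upper row of each list) and the 4 skin libraries (blue, lower row), with a symbol for each library. Keratinocyte sums lie far under skin in every sorted library, whereas sorted libraries 3 and 4 stand apart for fibroblast genes and library 2 for red blood cell genes.

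Sorted libraries differed from each other in the tissue transcripts they held. The fibroblast and matrix list summed to 9.89, 12.5, 216 and 477 FPKM in sorted libraries 1 to 4, against 3708 to 5149 FPKM in skin. Dcn, decorin, had 0.876, 1.87, 40.2 and 197 FPKM in sorted cells and 769 to 920 FPKM in skin. Lum, lumican, had 0.643, 0, 4.65 and 140 FPKM in sorted cells and 108 to 130 FPKM in skin, so the fourth sorted library exceeded every skin library. The change of Dcn was -5.85, and -7.11 without library 4; that of Lum was -4.31, and -5.82. Sparc had 2.66, 2.44, 141 and 35.4 FPKM in sorted cells and 1141 to 1494 FPKM in skin. Col1a1, a chain of type I collagen, had 0.00706, 0.106, 2.49 and 6.17 FPKM in sorted cells and 206 to 411 FPKM in skin, and its change of -6.88 was -7.43 without library 4. Mfap5, of elastic fibres, was listed at 0 in all 4 sorted libraries and was 11.2 to 19.3 FPKM in skin. Comp, a cartilage matrix protein, was 15.8 FPKM in sorted library 3 and 0.974 to 1.81 FPKM in the other sorted libraries, against 13.2 to 18.8 FPKM in skin.

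Red blood cell genes were high in sorted library 2 alone, where the list summed to 659 FPKM, against 0 to 2.04 FPKM in the other 3 and 170 to 268 FPKM in skin. Of 4 genes tested 3 were lower as deposited, and 1 was lower after median centring. Hba-a1, the 1 not called as deposited, had 0, 466, 1.85 and 0 FPKM in sorted cells and 65.6 to 124 FPKM in skin. Its change was -4.05 (adjusted p = 0.0553, limma), and -6.14 without library 2 (2.34e-06). The neutrophil genes S100a8 (0, 0, 112 and 0 FPKM in sorted cells, 4.29 to 8.9 FPKM in skin) and S100a9 (0, 0.209, 76.7 and 0 FPKM in sorted cells, 4.13 to 11.4 FPKM in skin) were high in sorted library 3 alone. Neither was called, and without library 3 their changes were -2.88 and -2.75 (adjusted p = 1.18e-05 and 4.34e-05, limma). The share of these cells or of their free RNA in the sorted libraries was not tested. With libraries 3 and 4 left out, a choice made after seeing the data, 855 genes were higher and 7910 lower.

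Of 16 endothelial and mural genes 15 were lower as deposited, but after median centring 6 were lower and 1 higher. Examples of those lower as deposited are Cdh5 (0.054 ± 0.0834 FPKM in sorted cells, 5.14 ± 0.299 FPKM in skin) and Tie1. Pecam1, an adhesion molecule of endothelium and leukocytes, was 10.3 ± 1.55 FPKM in sorted cells and 14.2 ± 1.51 FPKM in skin and not called. Of 10 Schwann cell and nerve genes 6 were lower, near the background share of 65.3%. Ncam1 was higher (5.67 ± 2.17 FPKM in sorted cells, 1.49 ± 0.0937 FPKM in skin), and Pmp22 was 71.4 ± 24.1 FPKM in sorted cells and 100 ± 8.95 FPKM in skin. Pecam1 and Pmp22, lower by 0.43 and 0.53 log2 units as deposited, were higher by 1.13 and 1.02 after median centring.

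**Figure D4:**
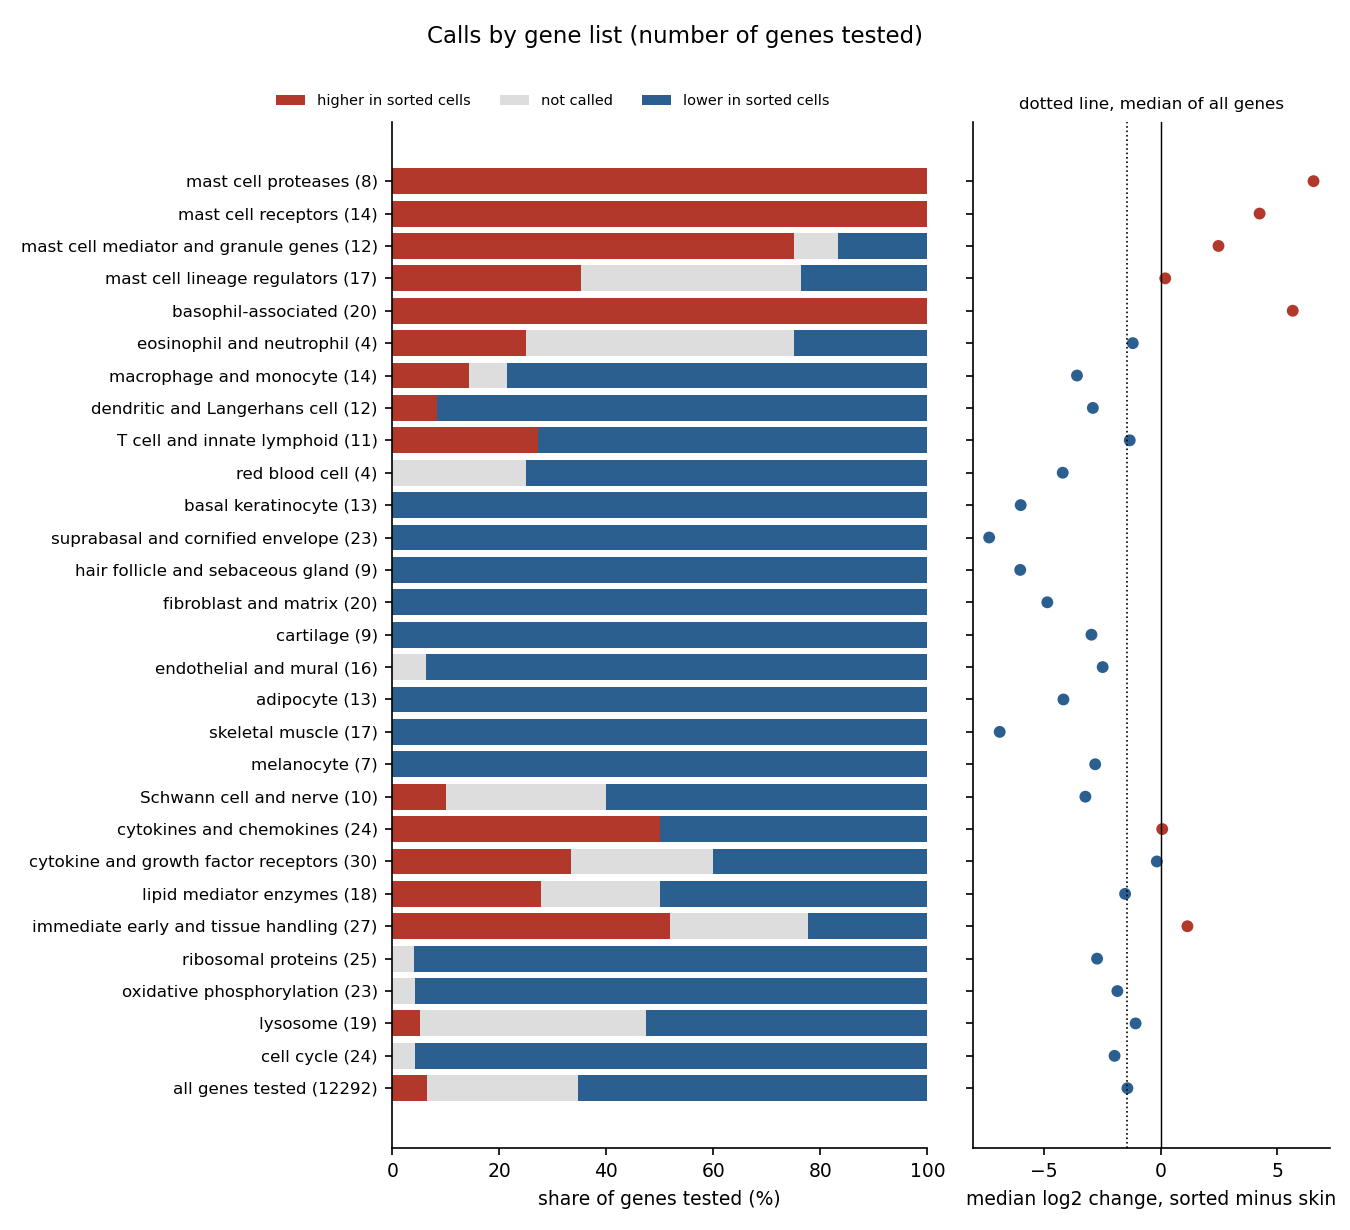
Left, share of the tested genes of each list that were higher (red), not called (grey) or lower (blue) in MrgprdCre sorted mast cells than in skin, for lists with at least 4 genes tested and, at the bottom, for all 12292 genes. Right, the median log2 change of each list (sorted minus skin), with the median of all genes, -1.42, as a dotted line.

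Genes that tissue digestion and cell handling are known to induce were more often higher than lower. Of 27 immediate early and stress genes 14 were higher and 6 lower (median 1.15), beside background shares of 6.51% and 65.3%. With libraries centred on their medians the counts were 19 and 4, beside 22.2% and 20.1% of all genes. Fos had 755, 795, 624 and 881 FPKM in sorted cells and 11.2, 23.3, 18.1 and 10.3 FPKM in skin. Dusp1 averaged 689 ± 67.8 FPKM in sorted cells and 37.7 ± 5.81 FPKM in skin, Zfp36 358 ± 22 FPKM in sorted cells and 24.1 ± 2.25 FPKM in skin, Ier2 434 ± 105 FPKM in sorted cells and 48.5 ± 1.04 FPKM in skin, and Egr1 205 ± 48.4 FPKM in sorted cells and 20 ± 3.05 FPKM in skin. The heat shock genes Hspa1a (0.599 ± 0.314 FPKM in sorted cells, 52.1 ± 1.56 FPKM in skin) and Hspa1b, near copies of each other, were lower, as was Klf4, a keratinocyte factor. Several chemokine genes above are inducible too, and the part of handling in their level was not tested.

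Enzymes for lipid mediators changed in both directions. The leukotriene genes Alox5 (42.5 ± 15.6 FPKM in sorted cells, 6.49 ± 0.346 FPKM in skin) and Alox5ap (324 ± 79.7 FPKM in sorted cells, 27.7 ± 1.9 FPKM in skin) were higher, and so were Alox15 (72.4 ± 15.7 FPKM in sorted cells, 0.157 ± 0.121 FPKM in skin) and Ptgs2, the inducible cyclooxygenase (9.1 ± 1.52 FPKM in sorted cells, 0.378 ± 0.0588 FPKM in skin). Ltc4s, the last enzyme of leukotriene C4 synthesis, was lower at 0.257 ± 0.307 FPKM in sorted cells and 7.72 ± 0.293 FPKM in skin. Also lower were the constitutive cyclooxygenase Ptgs1 (0.171 ± 0.207 FPKM in sorted cells, 39.4 ± 2.86 FPKM in skin) and the epidermal lipoxygenases Alox12b (0.0167 ± 0.0254 FPKM in sorted cells, 31.6 ± 2.36 FPKM in skin), Aloxe3 and Alox12. Of 18 genes tested, 5 were higher and 9 lower, beside background shares of 6.51% and 65.3%. Their median change of -1.52 lay close to that of all genes, -1.42. Median centring gave counts of 6 and 8, beside 22.2% and 20.1% of all genes.

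Of 25 glutamate receptor genes in the table only 3 passed the filter. Grm6, a metabotropic receptor, had 4.78, 4.1, 3.26 and 4.37 FPKM in sorted cells and was listed at 0 in all skin libraries. Gria1, an AMPA receptor subunit, was at most 0.155 FPKM in sorted cells and 1.16 to 1.54 FPKM in skin. Grik5, a kainate receptor subunit, was 1.35 ± 0.19 FPKM in sorted cells and 2.71 ± 0.35 FPKM in skin and not called. Grik2, the kainate subunit of interest to the series, was under the filter with 0.582, 0.239, 0.455 and 0 FPKM in sorted cells and 0.0665 to 0.102 FPKM in skin.

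Genes of general cell functions were mostly lower in FPKM, as was the median gene. Ribosomal protein genes were lower in 24 of 25 cases with a median of -2.72, or -1.30 relative to all genes, and after median centring 16 were lower and 1 higher. Rplp0, of the ribosomal stalk, was 174 ± 34.2 FPKM in sorted cells and 2397 ± 145 FPKM in skin. Oxidative phosphorylation genes were lower in 22 of 23 cases (median -1.85), and after median centring none of the 23 was called in either direction. Ndufs3, a subunit of complex I, was 20.2 ± 2.2 FPKM in sorted cells and 92.9 ± 5.62 FPKM in skin. Lysosomal genes were lower in 10 of 19 cases and higher in 1, and after centring 2 were lower and 8 higher, so their direction rests on the scaling. Laptm5, a lysosomal protein of leukocytes, was 164 ± 16.2 FPKM in sorted cells and 22 ± 1.78 FPKM in skin, and the protease Ctss 1.25 ± 1.13 FPKM in sorted cells and 71.5 ± 6.49 FPKM in skin. Both kept their direction after median centring, quantile normalization and scaling to a common sum.

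Cell cycle genes were lower in 23 of 24 cases (median -1.97), of which 8 were lower after median centring. The S phase gene Rrm2 was 0.0817 ± 0.0565 FPKM in sorted cells and 9.18 ± 0.387 FPKM in skin. The mitotic genes Cdk1 (0.0751 ± 0.0832 FPKM in sorted cells, 5.36 ± 0.284 FPKM in skin), Top2a and Birc5 were also near 0. Pcna, which acts in replication and repair, was 15.5 ± 3.81 FPKM in sorted cells and 59.3 ± 1.1 FPKM in skin.

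Some genes stood at like levels in both groups. For 403 genes the 95% interval of the log2 change lay within 0.5 of 0, and 112 of them had at least 20 FPKM in both. Gabarap, of autophagy, was 149 ± 8.52 FPKM in sorted cells and 154 ± 3.71 FPKM in skin, Arpc2, of the actin nucleator, 173 ± 9.55 FPKM in sorted cells and 179 ± 7.97 FPKM in skin, and Gnai2, a G protein subunit, 85.8 ± 6.52 FPKM in sorted cells and 80.3 ± 2.58 FPKM in skin. Likeness holds for FPKM as deposited: after median centring Gabarap, Arpc2 and Gnai2 were higher by 1.51, 1.51 and 1.64.

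The same contrast was made in MrgprdDTR mice, whose 8 libraries share none with the one above. Of 12265 genes tested there, 658 (5.36%) were higher and 7686 (62.7%) lower in sorted cells, together 68%. The 4 sorted libraries lay above all 4 skin libraries for 8.09% of them and below for 79.8%. Called lower in both lines were 6835 genes, which is 88.9% of the MrgprdDTR and 85.2% of the MrgprdCre list, and 0 changed the other way. Called higher in both were 429, or 65.2% of the MrgprdDTR and 53.6% of the MrgprdCre list, and 66 genes higher in MrgprdCre sorted cells were called lower in MrgprdDTR sorted cells.

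The differences between the lines were tested by an interaction term over the 16 libraries. It passed for 3527 of 12730 genes (27.7%). The MrgprdDTR contrast less the MrgprdCre contrast was positive for 1833 of them and negative for 1694. For a gene lower in sorted cells of both lines, a positive value means a smaller difference from skin in MrgprdDTR mice. For Cpa3, Tpsb2 and Cma1 the term did not pass: the MrgprdDTR contrast less the MrgprdCre contrast was -0.35 ± 0.21, -0.02 ± 0.26 and -0.33 ± 0.27 (SE), with adjusted p of 0.239, 0.961 and 0.388 (limma). Kit and Mrgprb2 were larger in MrgprdDTR mice by 1.61 ± 0.22 and 1.43 ± 0.23 (adjusted p = 4.58e-05 and 0.000245), with 232, 241, 161 and 148 FPKM of Kit in MrgprdDTR sorted cells and 40.7 to 54.5 FPKM in MrgprdCre sorted cells. Mcpt8, Prss34 and Cd200r3 were smaller by 6.76, 4.66 and 1.23 log2 units (adjusted p = 1.12e-12, 1.14e-05 and 0.00141), values that depend on the added 1 where skin was near 0. Mcpt8 had 2.29, 2.77, 1.8 and 1.58 FPKM in MrgprdDTR sorted cells and 258 to 467 FPKM in MrgprdCre sorted cells.

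**Figure D5:**
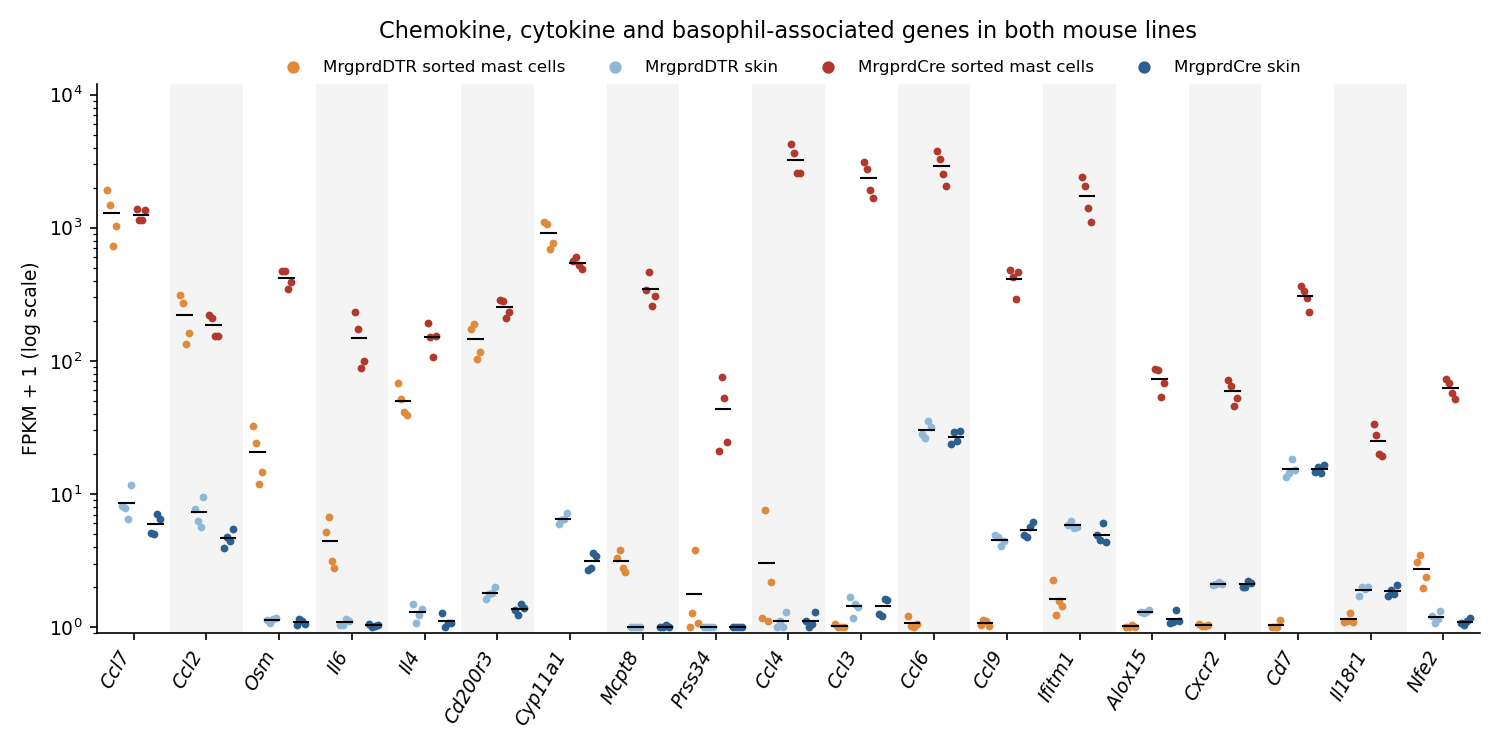
FPKM + 1 on a log axis for 19 chemokine, cytokine and other genes high in MrgprdCre sorted cells, with 4 points a group and bars for the means, in MrgprdDTR sorted cells (orange), MrgprdDTR skin (light blue), MrgprdCre sorted cells (red) and MrgprdCre skin (dark blue). Ccl7, Ccl2, Cd200r3 and Cyp11a1 are high in sorted cells of both lines, whereas Ccl3, Ccl6, Ccl9, Alox15, Cxcr2 and Cd7 are near 1 in MrgprdDTR sorted cells.

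Of the 234 genes at least 3 log2 units higher in MrgprdCre sorted cells, 160 (68.4%) were called higher in MrgprdDTR mice, while 42 (17.9%) were under 1 FPKM in all 4 MrgprdDTR sorted libraries. Ccl3 had 0.0465 FPKM in the first MrgprdDTR sorted library and 0 in the other 3, against 1685 to 3128 FPKM in MrgprdCre sorted cells. Ccl6 had 0 to 0.205 FPKM in MrgprdDTR sorted cells and 2058 to 3763 FPKM in MrgprdCre sorted cells, and Ccl9 had 0.0257 to 0.124 FPKM in MrgprdDTR sorted cells and 290 to 478 FPKM in MrgprdCre sorted cells. From the other chromosome 11 stretch, Ccl7 averaged 1286 FPKM in MrgprdDTR and 1255 FPKM in MrgprdCre sorted cells, and Ccl2 220 FPKM in MrgprdDTR and 184 FPKM in MrgprdCre sorted cells. Ifitm1, Ccl6, Ccl9, Cxcr2 and Cd7 are among the 66 genes called in opposite directions. All 14 receptors of the mast cell list were higher in sorted cells of both lines. Of the listed proteases 8 were tested in each line and all 8 were higher there, but they were not the same 8. Gzmb, higher in MrgprdCre mice, averaged 0.719 FPKM in MrgprdDTR sorted cells and 16.5 FPKM in MrgprdCre sorted cells. The line and the toxin label differ together between these groups, so their parts cannot be told apart.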

How the data were processed

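RNA was sequenced from 40 mouse libraries in 10 groups of 4. The authors aligned reads with STAR and computed FPKM (fragments scaled by gene length and library size) with Cufflinks on mm9, per the submitters' processing notes; versions are not given in the sources used here. The deposited FPKM table holds no read counts. Depth is therefore unknown, and values carry no interval for counting error. The series mixes single and paired end libraries that the labels do not tell apart. All 40 value columns were matched to samples by title, and 0 columns were left without a sample. Of 23812 table entries, 1245 on chromosomes X and Y were left out and 22567 kept.

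Genes with at least 1 FPKM in 4 of the 8 libraries were tested on log2(FPKM + 1) with limma 3.58.1 (trend, R 4.3.3) and Benjamini-Hochberg adjustment over all of them. A gene was called at an adjusted p under 0.05 and a 2-fold change. MrgprdDTR libraries were fitted the same way, and the difference between lines as an interaction over 16 libraries. The procedure was tested on simulated data. Python 3.11.15, pandas 2.3.3, numpy 2.4.6 and matplotlib 3.10.9 served for summaries and figures. Promoter windows came from RefSeq on GRCm38.p6 and were matched by symbol, and coordinates given as mm9 are those of the table.

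Replicate numbers recur in sorted cells and skin. Deviations from the group means of same-numbered libraries correlated by -0.024 to 0.038 in MrgprdCre and -0.036 to 0.047 in MrgprdDTR, so the numbers were not taken as pairs. Alternatives were other pseudocounts (0.1 and 5), other filters, median centring, quantile normalization, scaling to a common sum, a replicate block, library weights, no trend, X and Y kept, and leaving out each library. The common sum was the mean summed FPKM of the 8 libraries.

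The genes and the 30 gene lists were chosen with earlier results of these data known. Named were the 12 largest called changes per direction without overlap and with at least 5 FPKM, up to 4 members of each list by p, genes of interest whatever their p, and up to 8 genes each of like level and of those near 0 in 1 group. Further list members and the genes of the 4 chromosome stretches were named after their values were seen.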

Additional observations from a re-analysis of the deposited data

Results flagged for a closer look

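A single library stood apart from the other 3 of its group in 16 of 229 groups of 4 examined (6.99%), by Dixon's criterion. Chance meets it in about 1 in 20 groups. The share cannot be read against that rate, since some of these genes were named after their values were seen. Sorted library 4 was highest for Ctsg (285 FPKM), Lum (140 FPKM), Ccl5 (20.4 FPKM), Ncam1 (8.92 FPKM) and Krt14 (3.86 FPKM), and lowest for Slc18a2 (33 FPKM). Sorted library 3 was highest for S100a8 (112 FPKM), S100a9 (76.7 FPKM) and Comp (15.8 FPKM), and lowest for Defb40 (94.2 FPKM). Sorted library 2 was highest for Hba-a1 (466 FPKM). Skin library 4 was highest for Lamp1 (210 FPKM) and Alox5ap (30.5 FPKM), and lowest for Hspa1a (49.8 FPKM), Egfr (10.1 FPKM) and Runx1 (2.05 FPKM). The causes were not tested.

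The contrast of sorted cells with skin differed between the mouse lines by the interaction term for 5 of the 8 genes examined singly. Relative to MrgprdCre mice, the contrast in MrgprdDTR mice was larger by 1.61 log2 units for Kit and 1.43 for Mrgprb2. For Mcpt8, Prss34 and Cd200r3 the difference was -6.76, -4.66 and -1.23.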

How the results depend on the processing

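Of 155 genes named and tested, 128 kept their direction and side of the threshold under every alternative run; of all 3088 single values 3015 did, 31 lost and 15 gained a call, and 27 changed sign. The count of lower genes, 8027, was 4625 with a pseudocount of 5. Scaling moved the split most: higher and lower genes numbered 2732 and 2468 after median centring, 2585 and 2596 after quantile normalization, and 1775 and 4409 after scaling to a common sum. In MrgprdDTR mice they were 402 and 4489 with a pseudocount of 5 and 2851 and 2571 after median centring. Leaving out each library gave 789 to 835 higher and 7880 to 8082 lower genes in MrgprdCre mice, and 617 to 701 and 7388 to 7973 in MrgprdDTR mice. For the interaction it gave 1450 to 2343 genes with a positive and 1482 to 1918 with a negative term. With the replicate block, 801 genes were higher and 8033 lower in MrgprdCre mice, and 658 and 7686 in MrgprdDTR mice. The interaction term was then positive for 1819 genes and negative for 1696.

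Some named genes with log2 changes of -1.48 to -0.05 as deposited changed sign. After median centring and quantile normalization, Apoe was at 0.08 and 0.03, Ext1 at 0.13 and 0.08, Gria1 at 0.42 and 0.26, S100a8 at 0.38 and 0.31, and S100a9 at 0.35 and 0.35. After these and scaling to a common sum, Arpc2 was at 1.51, 1.07 and 1.25, Gabarap at 1.51, 1.07 and 1.24, Grik5 at 0.89, 1.04 and 0.20, Pecam1 at 1.13, 0.97 and 0.78, and Pmp22 at 1.02, 0.56 and 0.75. Arpc2 was at 0.00 with library weights and 0.02 without sorted libraries 3 and 4. Lum and Comp were not called under any of the 3 scalings. The interaction of Tpsb2, near 0, was 0.27 with a pseudocount of 5 and ranged from -0.16 to 0.11 without 1 library (0.07 without MrgprdCre sorted library 2 or 4, 0.02 without MrgprdCre skin library 1 or MrgprdDTR skin library 4, 0.06 without MrgprdDTR sorted library 4). These causes were not tested.

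Depth is unknown and 4 libraries a group limit precision. FPKM is relative to each library's own total, and neither the sort purity nor RNA content per cell was measured.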
